A study of Mus musculus with 6 samples.

Results

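The genes described here encode the subunits of the mitochondrial respiratory chain and ATP synthase that are carried in the nuclear genome. They were chosen by name as protein-coding genes of the Nduf, Sdh, Uqcr, Cox4 to Cox8 and Atp5 families together with Cyc1, and 99 of the 56884 genes in the deposited table fell under that rule. Complex I had 48 of them, complex II 4, complex III 9, complex IV 19 and complex V 19. The name rule also takes in 8 assembly factors of complex I (Ndufaf genes), the ATP synthase inhibitor Atp5if1 and the supercomplex factor Cox7a2l, which were counted apart from the subunits.

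The respiratory chain passes electrons from NADH (complex I) and succinate (complex II) through ubiquinone to complex III, then through cytochrome c to complex IV, which reduces oxygen. Complexes I, III and IV pump protons, and complex V, the ATP synthase, uses the resulting gradient to make ATP. Complexes I, III, IV and V combine subunits from the nucleus and from mitochondrial DNA, while all subunits of complex II come from the nucleus. Neutrophils are known for depending mainly on glycolysis and for holding few mitochondria.

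RNA sequencing compared mouse bone marrow neutrophils, sorted as mature by surface CD101 and Ly6G, after ex vivo culture with DKK1 (3 libraries) and without it (3 libraries, called control here). DKK1, Dickkopf-1, is a secreted antagonist of Wnt signalling. The sources used here give neither the DKK1 dose nor the culture time, and no strain, sex or age of the mice. The labels do not tell whether replicate libraries stem from different mice or dishes; the p-values therefore reflect the spread among these 6 libraries, and that spread may be technical.

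Values are the authors' normalized counts per gene. Recovered reads per library ranged from 5188116 to 8749228 with DKK1 and from 8688911 to 9851961 in control. The labelled cell type held by its markers in control only: all 8 neutrophil markers, Ly6g and Cd101 among them, were lower with DKK1, with a summed level of 2720 to 3082 in DKK1 libraries against 649530 to 675610 in control libraries. Of 10 monocyte and macrophage markers, 3 (Adgre1, Cd68 and Ms4a7) were higher and 6 lower with DKK1, with a summed level of 15259 to 15378 in DKK1 and 7354 to 7466 in control; C1qa was at 0 in DKK1. Summed B cell markers stood at 41.2 to 98.4 with DKK1 and 1449 to 1587 in control, and T and NK cell markers at 0 to 2.98 with DKK1 and 45.3 to 79.3 in control. Erythroid markers summed to 300.5 to 1496 in DKK1 and 1592 to 1735 in control, and eosinophil, basophil and mast cell markers to 81.0 to 253 in DKK1 and 321 to 325 in control; within that list Mcpt8 (60.4 with DKK1, 12.9 in control) and Cpa3 (39.4 with DKK1, 6.85 in control) were higher, and Siglecf (1.20 with DKK1, 292 in control) was lower. Columns were tied to samples by their headers and titles, and whether the columns labelled DKK1 hold the sorted neutrophils is in doubt; every value given with DKK1 is a value of the libraries with that label. The part of these markers in the results below was not tested. In bulk libraries, a change in the cells present and a change in RNA per cell cannot be told apart.

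Most respiratory chain transcripts that changed were higher with DKK1. Of the 88 members that entered the test, limma with Benjamini-Hochberg adjustment over all genes called 49 higher (55.7%) and 14 lower (15.9%) at an adjusted p under 0.05, and 25 did not pass. The background was large: 35.1% of the 16265 genes tested were called higher and 36.1% lower. Among the 12173 protein-coding genes tested, the class of all members, 39.8% were higher and 36.0% lower, with a median log2 change of 0.11. The median log2 change of the 88 was 0.64, against -0.03 over all genes tested, and single members ranged from -2.41 to 4.16. In each of the 49 every DKK1 library lay above every control library, and in each of the 14 every DKK1 library lay below. Such separation largely follows from a call with so few libraries, and its share over all genes was not counted. A median or count over tested members includes Ndufaf2, Ndufaf4, Ndufaf5 and Ndufaf6, which reached the test only through their DKK1 libraries.

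The balance of higher and lower depended on how libraries were scaled. Summed normalized counts of all genes were lower with DKK1 (6738824 ± 336773) than in control (9729307 ± 39771; SD, n = 3 each). With all libraries set to an equal total, the median over all genes moved by 0.47 on the log2 scale, and the members split into 66 higher and 6 lower with a median of 1.17. In that scaling 60.0% of all calls were higher, against 49.3% in the authors' scaling. The 6 still called lower were Ndufa8, Ndufb11, Sdhd, Cox7a2l, Atp5if1 and Atp5mg.

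As a share of each library, respiratory chain reads took up more of the DKK1 libraries. In reads per 1000000 recovered reads, the 99 genes together had 4166, 3584 and 4189 in DKK1 libraries 1 to 3 and 2079, 2116 and 2088 in control libraries 1 to 3. The groups did not overlap, and DKK1 library 2, the least deeply sequenced, was the lowest of its group. On the authors' scale the same sums were 27164, 25543 and 27513 normalized counts with DKK1, against 20327, 20540 and 20265 in control.

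By complex, the summed reads per 1000000 averaged 1024 ± 116 with DKK1 and 545.9 ± 2.44 in control for complex I (SD, n = 3 each, as below). Complex II stood nearest to control, at 264 ± 14.1 with DKK1 and 178 ± 6.06 in control. Complex III averaged 417 ± 48.6 with DKK1 and 177 ± 3.11 in control. Complex IV averaged 744 ± 62.2 with DKK1 and 422 ± 6.08 in control, and complex V 1530.2 ± 104 with DKK1 and 771 ± 7.47 in control. By reads per 1000000, the 3 DKK1 libraries lay above the 3 control libraries in every complex, as the plot by complex shows. This measure sets libraries to an equal total. On the authors' scale the summed counts of complex II overlapped between groups, while those of the other complexes stayed apart.

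**Figure D1:**
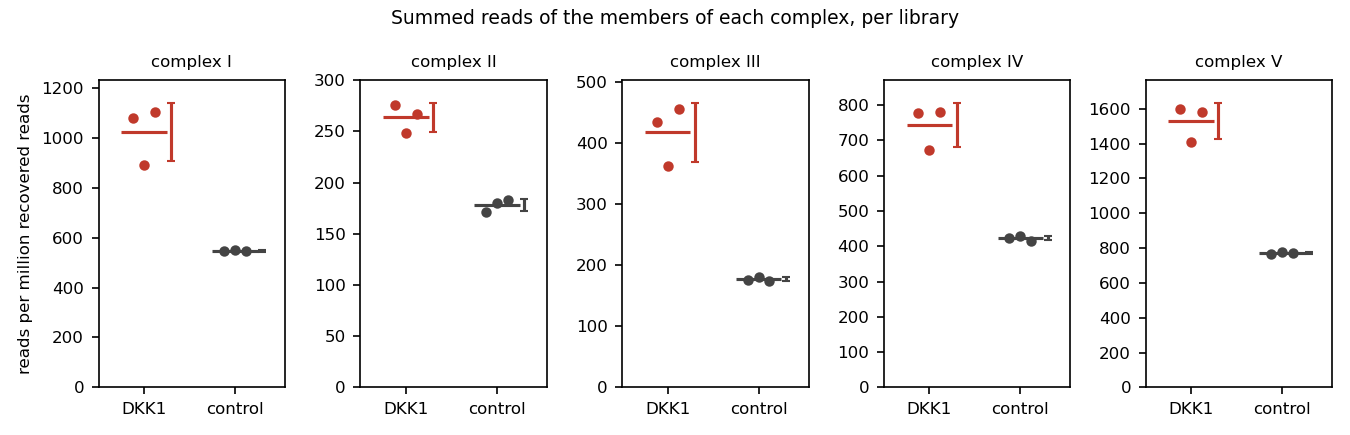
Reads per 1000000 recovered reads (linear axis from 0), summed over the members of complexes I to V, in each DKK1 and control library. Points are libraries, horizontal lines group means and bars the SD (n = 3). Complex V averaged 1530.2 with DKK1 and 771 in control, and on this measure the groups do not overlap in any complex.

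Counted by member, complex I had 26 members higher and 5 lower of 46 tested (median log2 change 0.70), complex III 6 higher and 0 lower of 9 (0.94), and complex IV 6 higher and 2 lower of 11 (0.65). Complex V had 10 higher and 6 lower of 18 (0.44), and complex II had 1 higher and 1 lower of 4 (0.12). For complexes I to V, 56.5%, 25%, 66.7%, 54.5% and 55.6% were higher and 10.9%, 25%, 0%, 18.2% and 33.3% lower. All genes tested had 35.1% higher and 36.1% lower, so the share lower in complex V was near that of all genes. By limma, 0 complex III members were lower, and 0 also without adjustment. On the recovered reads edgeR and DESeq2 each called 1, Uqcrh, lower, as did limma with median-of-ratios scaling (adjusted p = 0.0434); limma with equal totals called 0, and there the log2 change of Uqcrh was 0.19.

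**Figure D2:**
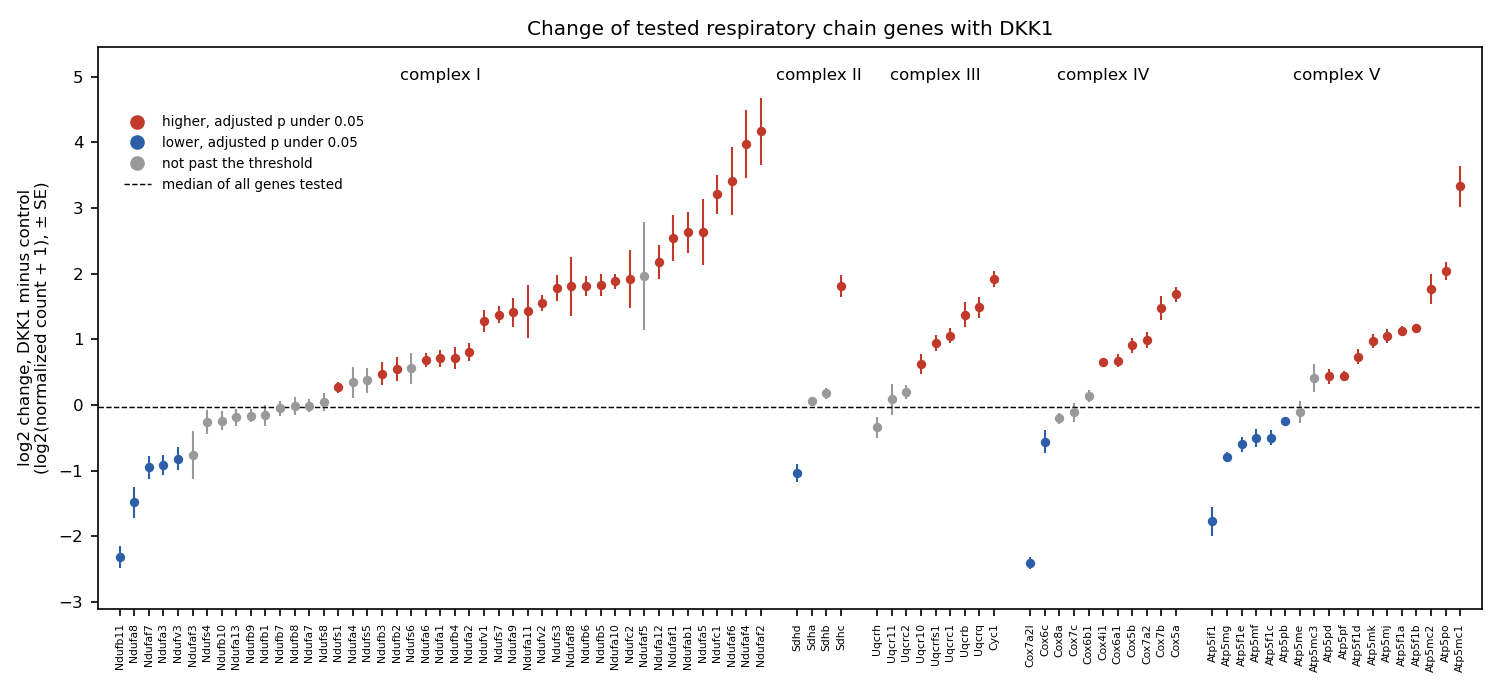
Log2 change (DKK1 minus control, on log2(normalized count + 1)) with its SE for all but 1 of the 88 tested genes, grouped by complex and sorted within each. Red points were higher and blue points lower by limma, grey points did not pass, and the dashed line is the median of all genes tested (-0.03); values run from -2.41 for Cox7a2l to 4.16 for Ndufaf2.

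Promoter sequences are shown for members that moved in opposite directions, since nuclear respiratory chain genes are known targets of the transcription factors NRF1, GABPA (an ETS factor) and YY1. RefSeq promoters (GRCm38.p6, from 250 bases before the start to 50 after it) were found for 80 of the 99 members. They were searched on both strands for GCGCATGC (NRF1), CCGGAAG (ETS) and AAGATGGC (YY1). Each line gives the 120 bases before the RefSeq start, with motif matches in capitals; all of these genes lie on the minus strand.
Atp5mc2, chr15:102671048-102671167: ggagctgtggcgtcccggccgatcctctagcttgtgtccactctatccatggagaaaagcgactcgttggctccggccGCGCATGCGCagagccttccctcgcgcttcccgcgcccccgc
Cox6a1, chr5:115348959-115349078: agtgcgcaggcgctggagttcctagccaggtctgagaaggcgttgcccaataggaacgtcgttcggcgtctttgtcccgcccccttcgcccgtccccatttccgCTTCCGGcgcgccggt
Ndufa8, chr2:36049339-36049458: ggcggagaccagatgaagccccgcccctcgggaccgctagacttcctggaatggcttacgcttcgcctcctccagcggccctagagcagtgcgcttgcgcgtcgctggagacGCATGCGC
Sdhd, chr9:50603850-50603969: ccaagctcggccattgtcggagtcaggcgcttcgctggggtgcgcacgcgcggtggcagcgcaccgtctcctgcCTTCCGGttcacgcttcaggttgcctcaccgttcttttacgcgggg
Cox7a2l, chr17:83514334-83514453: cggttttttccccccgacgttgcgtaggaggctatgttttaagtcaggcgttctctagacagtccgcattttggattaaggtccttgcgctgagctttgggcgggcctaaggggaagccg
Ndufb11, chrX:20617620-20617739: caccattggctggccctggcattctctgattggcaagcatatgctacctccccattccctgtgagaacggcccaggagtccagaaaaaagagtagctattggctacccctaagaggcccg

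The capitals mark overlapping NRF1 matches on both strands in Atp5mc2, which was higher with DKK1, and an NRF1 match in Ndufa8, which was lower. An ETS match stood in Cox6a1, which was higher, and in Sdhd, which was lower. Cox6a1 also held overlapping NRF1 matches farther from the start, in the bases searched but not shown. Cox7a2l and Ndufb11, the members with the largest falls, held none of the 3 words in the bases shown. Members called higher without any of the words in the bases searched included Atp5mc1, Ndufab1, Atp5po and Cox5a. The promoters shown were picked by hand with the directions of change known. The windows of Cox7a2l and Atp5mc2 lie inside the annotated spans of these genes, so bases before the outermost annotated start were not searched. Across the 80 members, 35 (43.8%) held at least 1 of the words, against 17.1% of 21477 genes with a promoter and 27.9% of the 10665 of those that were tested. The share was 41.0% of 39 members called higher, 54.5% of 22 that did not pass and 53.8% of 13 called lower. A match is a run of letters and not a measured binding site.

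The catalytic core of complex I was mostly higher. Of its 7 nuclear-encoded core subunits 5 were called higher (Ndufs1, Ndufs3, Ndufs7, Ndufv1 and Ndufv2) and 0 lower by limma, with a median log2 change of 1.28; all 7 changes were above 0, so 0 were lower without adjustment as well. From recovered reads edgeR called 4 higher and 0 lower. Ndufv1, which binds NADH and the flavin cofactor, had 233, 183 and 273 normalized counts in DKK1 libraries and 84.6, 92.7 and 101.5 in control libraries. Its log2 change was 1.28 (SE 0.17, limma adjusted p = 0.000105). Ndufs3, a core subunit of the peripheral arm, had 149.8, 148.4 and 143.7 with DKK1 and 35.1, 39.1 and 55.2 in control (log2 change 1.77, SE 0.20, limma adjusted p = 3.42e-05). Both genes kept the groups well apart.

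Ndufs1, the large iron-sulfur subunit, had 385, 394 and 369.9 normalized counts with DKK1 against 317, 305 and 332 in control. The difference was small (log2 change 0.27, SE 0.09, limma adjusted p = 0.0192), and its call was lost without control library 1 (adjusted p = 0.0587) or 2 (0.0807) and with edgeR (0.0681), over a range of 3.17e-05 to 0.163 across 19 alternatives. The core subunit Ndufs8, at 127 ± 11.8 with DKK1 and 123 ± 7.75 in control, did not pass; its log2 change of 0.05 was -0.01 with median-of-ratios scaling and 0.58, called higher, with equal totals.

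The 31 accessory subunits of complex I, which surround the core and are needed for its assembly and stability, were more mixed, with 16 called higher and 4 lower, while 11 did not pass (a median log2 change of 0.55). Ndufab1, the mitochondrial acyl carrier protein, which also serves fatty acid and lipoic acid synthesis, had 330, 405 and 332 normalized counts with DKK1 and 75.8, 74.8 and 31.5 in control. Its log2 change was 2.63 (SE 0.31, limma adjusted p = 4.72e-05). Ndufc1, a small subunit of the membrane arm, had 90.2, 68.7 and 115 with DKK1 and 7.69, 11.2 and 7.88 in control (log2 change 3.21, SE 0.30, limma adjusted p = 8.81e-06). Both log2 changes exceeded that of each core subunit, a difference that was not tested.

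Ndufb11 (ENSMUSG00000031059.10, chromosome X, 20615326 to 20617619, minus strand), also in the membrane arm, went the other way. It had 40.2, 38.5 and 36.7 normalized counts with DKK1, against 183, 235 and 172 in control (log2 change -2.31, SE 0.17, limma adjusted p = 1.88e-06). Its level relative to Ndufb5, another membrane arm subunit, was 0.215 ± 0.033 in DKK1 libraries and 3.91 ± 0.25 in control libraries (SD, n = 3 each). Ndufb5 itself was called higher (log2 change 1.83), which widens that contrast. Relative to Ndufb10, which did not pass, Ndufb11 stood at 0.326 ± 0.025 with DKK1 and 1.43 ± 0.37 in control. Rbm10, on the opposite strand, overlaps 12.9% of the Ndufb11 exon bases and averaged 74.1 with DKK1 and 165 in control. The sources used here do not state strandedness, so reads of such pairs cannot be told apart. In the same way Ndufb5 overlaps Mrpl47 (74.97 with DKK1, 10.7 in control), Ndufs3 overlaps Kbtbd4 (121 with DKK1, 83.4 in control) and Ndufs1 overlaps Ino80dos (30.2 with DKK1, 69.4 in control). Further pairs are Atp5pf with Gabpa (833 with DKK1, 459 in control) and Cox5a with Gm26631 (4.01 with DKK1, 2.20 in control). Atp5if1 overlaps Gm12999 (5.98 with DKK1, 3.16 in control). Atp5po overlaps Atp5o on the same strand, and these are not all the pairs.

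Ndufa8, an accessory subunit on the intermembrane space side whose promoter with an NRF1 match is shown above, had 96.9, 53.6 and 104.5 with DKK1 and 240.5, 227 and 221 in control (log2 change -1.48, SE 0.24, limma adjusted p = 0.000381). Ndufa3 averaged 204 ± 41.4 with DKK1 and 379 ± 14.0 in control, and Ndufv3, a small subunit of the NADH-binding module, 55.2 ± 6.22 with DKK1 and 97.7 ± 8.67 in control. Both were called lower by limma (log2 changes -0.91 and -0.81) and neither was with equal totals (adjusted p = 0.0807 and 0.175). Ndufa4, first described with complex I and now assigned to complex IV, stood at 157, 90.7 and 127 with DKK1 and 99.9, 114 and 76.8 in control, with overlapping groups and no call (limma adjusted p = 0.209). Without DKK1 library 2 it was called higher (adjusted p = 0.0236), and with equal totals also (0.0118).

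The Ndufaf genes act in building complex I and are not part of the finished enzyme. Of the 8, 5 were called higher, 1 lower and 2 did not pass; Ndufaf2, Ndufaf4 and Ndufaf6 are among the 5 and had few control reads. Ndufaf2 had 110 reads over the 3 DKK1 libraries and 3 over the 3 control libraries, and the scaled ratio of 31.4 could lie between 10.5 and 155 by the 95% counting interval. Ndufaf4 had 91 reads with DKK1 and 3 in control, a ratio of 26.0 (8.61 to 128). Ndufaf6 had 45 reads with DKK1 and 1 in control, and its ratio of 38.5 has an interval of 6.57 to 1555. At these depths the size of the ratios is poorly set, and the intervals cover counting error only. Ndufaf7, a methyltransferase, was lower, at 67.4 ± 12.4 with DKK1 and 129.5 ± 5.70 in control (log2 change -0.95, limma adjusted p = 0.0010), but not with equal totals (adjusted p = 0.0586).

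Complex II, which is also the succinate dehydrogenase of the citric acid cycle, split by its membrane anchors. Sdhc, one anchor, had 405, 317 and 389 normalized counts with DKK1 and 82.4, 119.5 and 113 in control (log2 change 1.82, SE 0.17, limma adjusted p = 8.76e-06). Sdhd (ENSMUSG00000000171.6, chromosome 9, 50596357 to 50603812, minus strand), the other anchor, had 268, 354 and 242.5 with DKK1 and 561, 573 and 612 in control (log2 change -1.03, SE 0.14, limma adjusted p = 0.000111). Within a library, Sdhd stood at 0.660, 1.12 and 0.624 times Sdhc with DKK1 and at 6.81, 4.79 and 5.40 times Sdhc in control. This ratio does not depend on scaling between libraries.

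The catalytic subunits of complex II were close between groups. Sdha, the flavoprotein, had 779.6, 751 and 751 with DKK1 and 724, 743 and 723 in control. Sdhb, the iron-sulfur subunit, had 346, 346 and 374 with DKK1 and 305, 313 and 324 in control. Neither passed (limma adjusted p = 0.440 and 0.0960), although each DKK1 library lay above each control library; with equal totals both were called higher (log2 changes 0.59 and 0.71, adjusted p = 7.63e-05 and 0.000141). The sign for Sdha turned with median-of-ratios scaling. The ratio of Sdhb to Sdha was 0.467 ± 0.028 with DKK1 and 0.430 ± 0.015 in control.

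Complex III had its catalytic nuclear subunits higher. Cyc1 (ENSMUSG00000022551.9, chromosome 15, 76343523 to 76346260, plus strand), cytochrome c1, which hands electrons to cytochrome c, had 268, 255.5 and 274 normalized counts with DKK1 and 70.3, 65.9 and 71.9 in control (log2 change 1.92, SE 0.12, limma adjusted p = 6.02e-07). Uqcrfs1, the Rieske iron-sulfur protein, averaged 278 ± 10.1 with DKK1 and 145 ± 16.7 in control (log2 change 0.94, SE 0.12, limma adjusted p = 8.11e-05). Uqcrc1, a core protein without a redox group, averaged 572 ± 77.5 with DKK1 and 273 ± 12.8 in control (log2 change 1.06, SE 0.11, limma adjusted p = 2.20e-05). The DKK1 and control libraries of all 3 were separate.

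Among the small subunits of complex III, Uqcrq averaged 477 ± 62.1 with DKK1 and 171 ± 33.1 in control, and Uqcrb 144 ± 33.0 with DKK1 and 54.0 ± 4.98 in control (log2 changes 1.48 and 1.38, both called higher by limma). The hinge protein Uqcrh, at 379.8 ± 84.3 with DKK1 and 473 ± 22.2 in control, the other core protein Uqcrc2, at 304 ± 27.0 with DKK1 and 264 ± 15.4 in control, and Uqcr11, at 90.9 ± 24.8 with DKK1 and 84.0 ± 14.5 in control, did not pass. Uqcrc2 was called higher with equal totals and with quantile scaling (log2 changes 0.73 and 0.35).

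In complex IV, whose catalytic subunits are encoded by mitochondrial DNA and were not analysed here, 6 of 10 nuclear subunits were higher and 1 was lower. Cox5a, a subunit on the matrix side, had 435, 431 and 440.1 normalized counts with DKK1 and 138, 116 and 153 in control (log2 change 1.68, SE 0.12, limma adjusted p = 1.44e-06). Cox7b, a small membrane subunit, averaged 280.1 ± 10.8 with DKK1 and 102 ± 24.9 in control (log2 change 1.48, SE 0.18, limma adjusted p = 6.36e-05). Cox4i1, the common form of the regulatory subunit 4, had 1089, 1164 and 1145 with DKK1 and 691, 751 and 717 in control (log2 change 0.65, SE 0.07, limma adjusted p = 2.17e-05). Its hypoxia-linked alternative Cox4i2 reached 2.45 in DKK1 library 3 and was at 0 in the other libraries, and was not tested.

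Cox6c was lower, at 206 ± 41.0 with DKK1 and 302 ± 47.9 in control (log2 change -0.56, limma adjusted p = 0.0177), and lost its call without control library 1 (adjusted p = 0.0591) and with equal totals (0.903). Cox8a, Cox7c and Cox6b1 did not pass. Cox8a, at 539 ± 33.7 with DKK1 and 620.1 ± 29.2 in control (log2 change -0.20, limma adjusted p = 0.0502), depended on scaling in both call and direction. It was lower with median-of-ratios scaling (adjusted p = 0.0182), edgeR (0.0171) and DESeq2 (0.0413), and higher with equal totals (log2 change 0.33, limma adjusted p = 0.00547). Cox6b1 was called higher with equal totals and with quantile scaling (log2 changes 0.66 and 0.39), and the log2 change of Cox7c was -0.11, or 0.42 with equal totals. The remaining 8 complex IV genes, the tissue-restricted forms Cox4i2, Cox6a2, Cox6b2, Cox7a1, Cox7b2, Cox8b and Cox8c and the copy Cox5b-ps, averaged at most 1.76 normalized counts in either group and were not tested. Also untested were Ndufa4l2, Ndufb11b and Atp5o, all at 0 in the 6 libraries.

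The largest fall of any tested member was that of Cox7a2l (ENSMUSG00000024248.15, chromosome 17, 83501918 to 83517330, minus strand). Its protein resembles the complex IV subunit Cox7a2 and is known for joining complexes III and IV into supercomplexes. Cox7a2l had 139, 125.0 and 136 normalized counts with DKK1 and 728, 703 and 702 in control (log2 change -2.41, SE 0.09, limma adjusted p = 1.66e-08). Cox7a2 itself had 492, 493 and 529 with DKK1 and 293, 261 and 212 in control (log2 change 0.99, SE 0.12, limma adjusted p = 7.51e-05). The ratio of Cox7a2l to Cox7a2 within a library was 0.282, 0.253 and 0.258 with DKK1, against 2.48, 2.69 and 3.32 in control. The order of these paralogs was opposite in the groups on normalized counts without length correction.

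**Figure D3:**
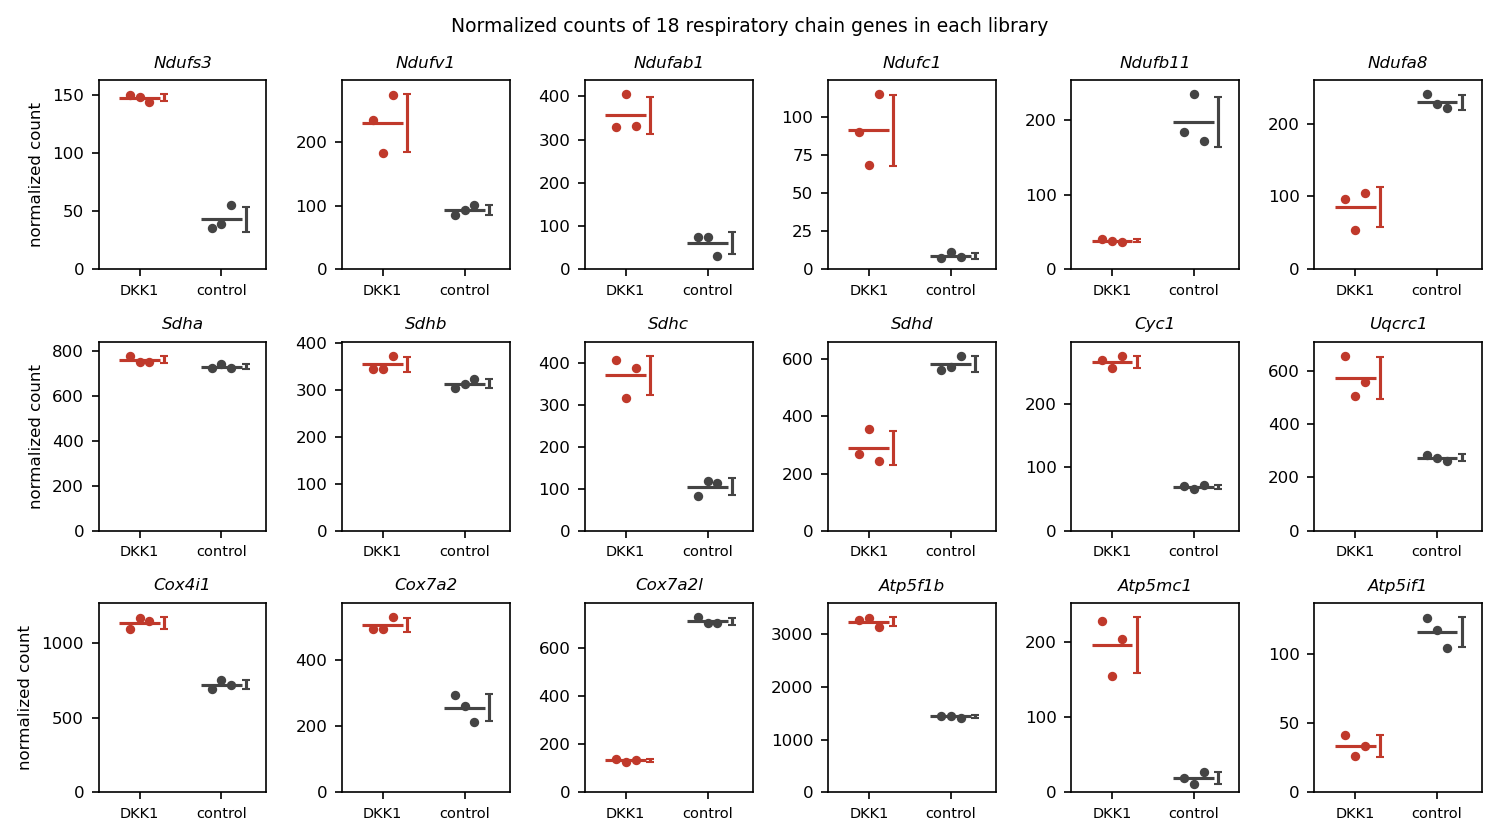
Normalized counts (linear axes from 0) of 18 respiratory chain genes in each DKK1 and control library, with the group mean as a line and the SD as a bar (n = 3). Sdhc is higher and Sdhd lower with DKK1, Sdha lies close between groups, and Cox7a2l averages 133 with DKK1 and 711 in control.

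The catalytic head of the ATP synthase, F1, had its ring subunits higher and part of its stalk lower. Atp5f1b, the catalytic beta subunit, had 3265, 3311 and 3142 normalized counts with DKK1 and 1454, 1453 and 1416 in control (log2 change 1.17, SE 0.05, limma adjusted p = 7.60e-08). Atp5f1a, the alpha subunit, averaged 1482 ± 88.8 with DKK1 and 679.5 ± 34.5 in control (log2 change 1.12, SE 0.07, limma adjusted p = 8.20e-07). Per kilobase of transcript, Atp5f1b stood at 1691 with DKK1, the highest level of any member there, and at 752 in control, where Atp5mg was highest, at 1323 with DKK1 and 2277 in control.

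Atp5f1c, the gamma subunit of the rotor, averaged 426 ± 62.1 with DKK1 and 598 ± 47.8 in control, and Atp5f1e, the epsilon subunit, 269.7 ± 35.9 with DKK1 and 406 ± 12.4 in control. Both were called lower by limma (log2 changes -0.50 and -0.60), but with equal totals their changes were 0.03 and -0.07 and neither passed. Atp5f1d, the delta subunit, was higher at 317 ± 3.97 with DKK1 and 191 ± 20.8 in control.

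The c subunit, whose ring turns in the membrane as protons pass, is encoded by Atp5mc1, Atp5mc2 and Atp5mc3, which differ in their import sequences and give the same mature protein. Atp5mc1 (ENSMUSG00000006057.16, chromosome 11, 96068852 to 96075670, minus strand) had 228, 155 and 204 normalized counts with DKK1 and 19.8, 11.2 and 27.6 in control (log2 change 3.33, SE 0.32, limma adjusted p = 1.09e-05). Atp5mc2, whose promoter is shown above, had 209, 185 and 273.5 with DKK1 and 46.1, 73.7 and 76.8 in control (log2 change 1.77, SE 0.23, limma adjusted p = 9.63e-05). Atp5mc3, at 169.9, 109.9 and 195 with DKK1 and 101.0, 117 and 129 in control, overlapped between groups and did not pass (limma adjusted p = 0.115), though with equal totals it was called higher (log2 change 0.94).

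The make-up of the c subunit transcripts differed between groups. Of the normalized counts of these 3 genes, Atp5mc1 gave 34.1% ± 3.62 with DKK1 and 9.73% ± 3.64 in control, and Atp5mc3 27.1% ± 2.42 with DKK1 and 57.9% ± 2.63 in control (SD, n = 3 each, not corrected for length). Atp5mc2 gave 38.8% ± 3.72 with DKK1 and 32.3% ± 4.44 in control. The groups did not overlap for Atp5mc1 and Atp5mc3 and did for Atp5mc2. How reads shared among the 3 genes or with pseudogenes were counted is not stated, so the split is uncertain to that extent. Their summed counts were 607, 451 and 673 with DKK1 and 167, 202 and 233.5 in control.

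Of 4 peripheral stalk subunits, which hold F1 still against the rotor, Atp5po, Atp5pd and Atp5pf were higher and Atp5pb lower. Atp5po, which caps F1 and is also called OSCP, had 297, 349 and 358 normalized counts with DKK1 and 81.3, 88.3 and 71.9 in control (log2 change 2.04, SE 0.13, limma adjusted p = 8.09e-07). Atp5pb averaged 915.8 ± 1.60 with DKK1 and 1088 ± 31.1 in control (log2 change -0.25, SE 0.06, limma adjusted p = 0.00577), and it was called higher instead with equal totals (0.28) and with quantile scaling (0.19). Wdr77, on the opposite strand, overlaps part of the Atp5pb exons (337 bases) and averaged 340.2 with DKK1 and 1097 in control.

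Of the other membrane subunits, Atp5mj and Atp5mk, small proteins that accompany the complex, were higher, at 261 ± 12.7 and 409 ± 44.7 with DKK1 and 126 ± 6.73 and 207 ± 2.93 in control. Atp5mg, subunit g, which helps join ATP synthases into dimers, had 721, 684 and 754 with DKK1 and 1239, 1200 and 1278 in control (log2 change -0.78, SE 0.07, limma adjusted p = 6.33e-06). Atp5mf, subunit f, had 239, 170.3 and 191 with DKK1 and 266, 297 and 284 in control and was called lower (log2 change -0.51, limma adjusted p = 0.00849), but stood at 0.02 and did not pass with equal totals.

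Atp5if1 (ENSMUSG00000054428.13, chromosome 4, 132530555 to 132533659, minus strand) encodes the protein that blocks ATP hydrolysis by the synthase when the proton gradient fails. It had 41.7, 26.1 and 33.5 normalized counts with DKK1 and 126, 117 and 104 in control (log2 change -1.77, SE 0.22, limma adjusted p = 6.50e-05). Each DKK1 library lay far below each control library. The ratio of Atp5f1b to Atp5if1 was 99.6 ± 24.8 with DKK1 and 12.5 ± 1.03 in control (SD, n = 3 each).

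**Figure D4:**
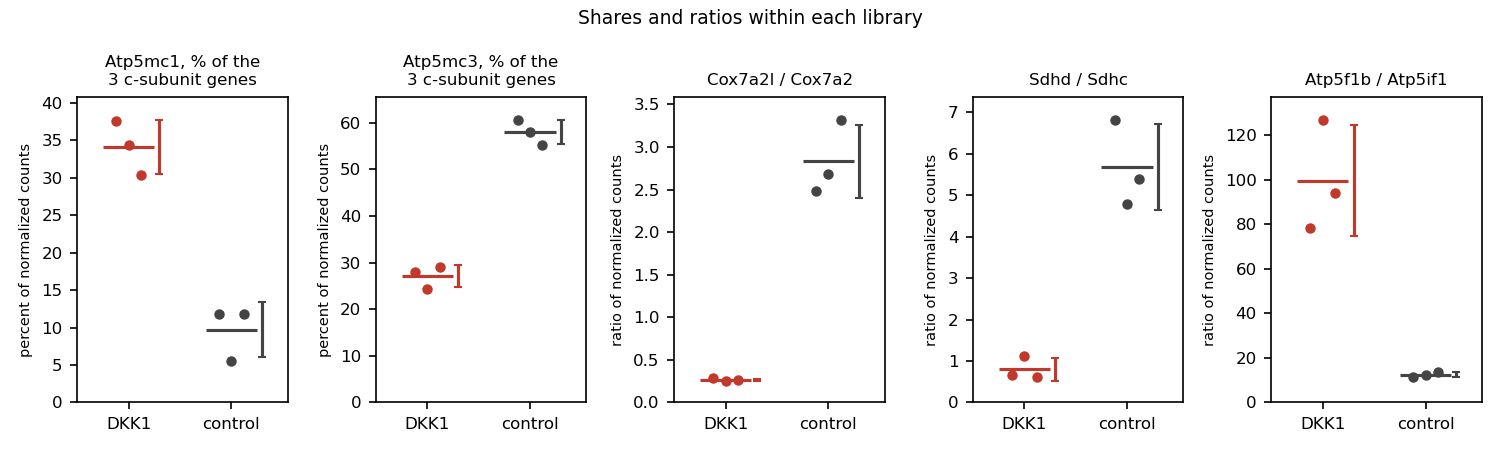
Shares (percent) and ratios of normalized counts computed within each DKK1 and control library, on linear axes from 0, with group means as lines and SD as bars (n = 3). Atp5mc1 gives 34.1% of c subunit counts with DKK1 and 9.73% in control, and the Cox7a2l to Cox7a2 ratio is 0.264 with DKK1 and 2.83 in control.

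The size of the changes varied with the level of the gene. The 22 members with a mean below 100 normalized counts over the 6 libraries had a median log2 change of 1.60, the 40 between 100 and 300 one of 0.70, and the 26 at 300 or more one of 0.15. The lowest range includes Ndufaf2, Ndufaf4, Ndufaf5 and Ndufaf6, which reached the test only through their DKK1 libraries and so raise its median in part by selection. All genes tested had medians of 0.00, 0.31 and -0.29 in the same ranges. From the lowest range up, 63.6%, 57.5% and 46.15% of members were called higher, against 30.0%, 48.1% and 39.05% of all genes tested. The shares called lower were 13.6%, 12.5% and 23.1% of members and 29.5%, 35.5% and 51.05% of all genes. In the 2 upper ranges the members' share higher thus stood nearer to that of all genes. Members also have short transcripts, with a median of 759 bases against 2365 over the 15700 tested genes with a length. DKK1 library 2 was the lowest of its group in 56 of 88 members (63.6%), against 35.0% of all genes tested, and without it 53 members were called higher and 15 lower.

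Other genes that serve the chain but lie outside the name rule moved in both directions. Across the lists below, 50% to 79.5% were called higher and 8.16% to 36.4% lower, against 35.1% and 36.1% of all genes tested. Of 49 further assembly factors 29 were higher and 4 lower (median log2 change 0.80). Counts and medians of these outside lists hold genes that reached the test only with their DKK1 libraries, all of them called higher: 6 assembly factors, 1 electron carrier or ubiquinone gene, 2 regulators, 4 mitochondrial ribosome genes and 1 import gene. Lrpprc, which stabilises mitochondrial messenger RNA, averaged 467 ± 41.3 with DKK1 and 15.8 ± 5.34 in control, and Sdhaf1, which helps insert the iron-sulfur clusters of Sdhb, 207 ± 45.6 with DKK1 and 11.6 ± 7.41 in control. Bcs1l, which inserts the Rieske protein into complex III, was lower, at 18.2 ± 1.83 with DKK1 and 44.8 ± 3.05 in control. Pet100, a complex IV factor, was also lower (160 ± 11.4 with DKK1, 266 ± 14.9 in control), though not with equal totals.

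Among 20 genes of electron carriers and ubiquinone synthesis, 13 were higher and 5 lower (median 1.14). Cycs, cytochrome c, had 1101, 1331 and 1256 normalized counts with DKK1 and 138, 153 and 137 in control. Coq8a, needed for ubiquinone synthesis, averaged 706 ± 66.9 with DKK1 and 6.00 ± 1.39 in control. Sqor, which feeds electrons from sulfide to ubiquinone, was lower at 132 ± 21.9 with DKK1 and 1059 ± 24.6 in control, as was Gpd2, the mitochondrial glycerol-3-phosphate dehydrogenase (329 ± 14.7 with DKK1, 836 ± 15.7 in control).

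Of 17 genes of the citric acid cycle and pyruvate dehydrogenase, 10 were higher and 4 lower (median 1.09). Pdhb averaged 974 ± 60.2 with DKK1 and 224 ± 29.2 in control, while Pdha1, its partner in the same enzyme, averaged 220.1 ± 22.6 with DKK1 and 402 ± 37.0 in control. Cs, citrate synthase, averaged 468 ± 30.3 with DKK1 and 834 ± 38.7 in control. All 3 were called by limma, Pdhb higher and Pdha1 and Cs lower, and kept those calls with equal totals.

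The mitochondrial ribosome had 62 higher and 8 lower of 78 tested genes (median 1.89), and protein import 18 higher and 4 lower of 25 tested entries (median 1.97). Mrpl45, a protein of the large ribosomal subunit, had 320.5, 484 and 372 with DKK1 and 9.88, 16.8 and 15.8 in control, while Mrpl33, of the same subunit, averaged 203 ± 41.4 with DKK1 and 2712 ± 54.1 in control. Hspa9, the matrix chaperone that pulls proteins in, had 3358, 5948 and 3509 with DKK1 and 80.2, 87.1 and 72.9 in control. All 3 were called by limma in the direction of their means.

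Regulators of mitochondrial gene expression had 7 higher and 3 lower of 14 tested (median 0.98). Polrmt, the mitochondrial RNA polymerase, averaged 151 ± 17.8 with DKK1 and 12.3 ± 1.33 in control, and Tfb2m, its initiation factor, 163 ± 27.1 with DKK1 and 34.8 ± 5.35 in control. Gabpb2, a partner of the ETS factor GABPA, and Esrra, a nuclear receptor, were lower, at 811 ± 58.9 and 139.6 ± 18.4 with DKK1 and 1441 ± 31.4 and 338 ± 9.39 in control. Gabpa itself was higher, at 833 ± 153 with DKK1 and 459 ± 30.7 in control (log2 change 0.84, SE 0.13, limma adjusted p = 0.000257). Yy1, at 1469 ± 210 with DKK1 and 1708 ± 16.3 in control, did not pass (limma adjusted p = 0.0587), and with equal totals it was called higher (log2 change 0.30). Nrf1, at 348 ± 15.9 with DKK1 and 378 ± 14.4 in control, did not pass (limma adjusted p = 0.238), and with equal totals it was called higher (log2 change 0.41).

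Carriers and alternative subunits had 6 higher and 4 lower of 11 tested (median 0.38). The share lower here, 36.4%, was near the 36.1% of all genes tested. AA467197, an alternative to Ndufa4, averaged 722 ± 142 with DKK1 and 279 ± 9.29 in control, and Vdac3, an outer membrane channel, 482 ± 74.0 with DKK1 and 129.6 ± 30.3 in control. Ucp2, an inner membrane carrier of the uncoupling protein family, was lower at 264, 276 and 269 with DKK1 and 5865, 5962 and 5986 in control. Slc25a5, an ADP/ATP carrier, averaged 451 ± 12.8 with DKK1 and 919 ± 42.8 in control and was also lower.

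**Figure D5:**
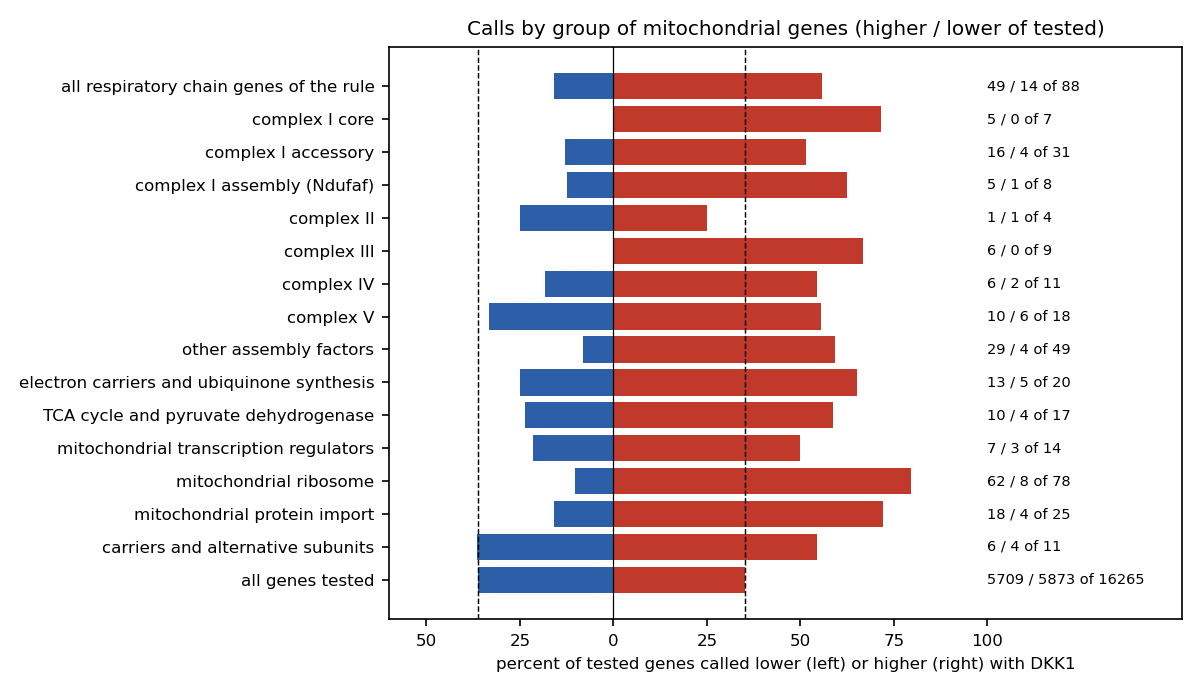
Percent of tested genes called higher (right, red) and lower (left, blue) with DKK1 by limma, for respiratory chain groups, 7 other groups of mitochondrial genes and all genes tested; dashed lines mark the shares over all genes (35.1% higher, 36.1% lower). Numbers at the right give genes higher and lower of those tested, 49 and 14 of 88 for the respiratory chain genes.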

How the data were processed

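The deposited table holds, per the file headers, the authors' normalized counts per gene and library, a signal that was at least 0 throughout. The genome build was mm10, per the submitters' processing notes. The sources used here do not state the aligner, counter, annotation, strandedness, normalization factors or treatment of reads shared with pseudogenes. Of the value columns, 3 matched no sample and were left out. All values (100%, tolerance 0.001 reads) were whole multiples of the worth of 1 read, so reads could be recovered. Positions come from GENCODE M21, matched without version for all 99 members, and promoters from RefSeq.

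Because the values are normalized, limma 3.58.1 (R 4.3.3, trend and robust) was run on log2(normalized count + 1), a scale that understates changes of low genes. Genes with at least 1 in at least 3 of 6 libraries entered. Two-sided p-values were adjusted by Benjamini-Hochberg over all 16265 genes, threshold 0.05. On recovered reads, edgeR 4.0.16 (quasi-likelihood) called 5503 genes higher and 5897 lower, and DESeq2 1.42.0 called 5138 and 5541. Groups came from sample titles. The script was tested on simulated data. Libraries within a group differed beyond counting noise, most of all DKK1 library 2. Chi-square per degree of freedom was 13.6 between DKK1 libraries 1 and 2 and 12.5 between 2 and 3. It was 2.99 between DKK1 libraries 1 and 3 and 2.19 to 2.26 between control libraries. Reads without molecular identifiers are not independent molecules, so the exact 95% intervals cover counting error only.

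The members and lists were chosen with earlier results of these data known. Members named with values were a set of main subunits, in each complex up to 3 of the largest rises and 2 of the largest falls with separate groups, and every member called lower. From each outside list up to 2 genes of smallest adjusted p in each direction were named. Other genes, such as Ndufs3, Ndufc1, the small subunits that did not pass, Atp5mj, Gabpa, Yy1 and Nrf1, were chosen after their values were seen. Alternatives were the replicate block, other pseudocounts, filters, scalings, variance models and tests, and leaving out each library. Some single-gene results are not reported here.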

Additional observations from a re-analysis of the deposited data

How the results depend on the processing

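The medians kept their sign under every alternative run. Over the alternatives, 138 counts and medians stayed near the main result and 16 moved. Counts were judged by fold and medians by the spread among libraries. With equal totals 6 members were lower and the medians were 1.17 for all members, 1.23, 0.65, 1.47, 1.18 and 0.97 for complexes I to V. With quantile scaling the medians of complexes II, IV and V were 0.41, 0.89 and 0.69. For complex II the median was 0.0581 with median-of-ratios, 0.0647 with edgeR, 0.0594 with DESeq2 and 0.0308 with a length and GC trend removed, an alternative chosen after seeing the data. A log2 change of at least 1 left 32 higher and 5 lower, since it adds a condition. Leaving out each library gave 46 to 53 higher, 13 to 15 lower, and medians of 0.56 to 0.69 for all members, 0.61 to 0.76, 0.10 to 0.13, 0.87 to 1.02, 0.60 to 0.68 and 0.40 to 0.61 for complexes I to V. Among the members named by the rule, signs turned for Sdha (-0.0007 with median-of-ratios, -0.0189 with the trend removed), Atp5f1c (0.0348) and Atp5mf (0.0212) with equal totals, and Atp5pb (0.28 with equal totals, 0.19 with quantile scaling); beyond the arithmetic of scaling, the cause was not tested. Among other members with values above, none of them called in the authors' scaling, signs turned for Cox8a (0.33 with equal totals, 0.12 with quantile scaling), Uqcrh (0.19) and Cox7c (0.42) with equal totals, and Ndufs8 (-0.01 with median-of-ratios, -0.03 with quantile scaling, -0.01 with edgeR and -0.02 with DESeq2). Over members named by the rule and alternatives, 690 results kept their side of the threshold and direction, 16 lost their call, 6 gained one and 6 turned.

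Deviations from the group means had correlations of -0.0052, 0.0066 and 0.017 between same-numbered libraries. Whether a number marks a shared mouse or day is not stated, and these correlations cannot decide it, since counting noise enters them. With the replicate number as a block 48 members were higher and 14 lower, the medians were unchanged, and among named members Ndufs1 lost its call (adjusted p = 0.0513). Depth limits the low members most: Ndufaf2, Ndufaf4 and Ndufaf6 had 1 to 3 control reads, and the log2 change of Ndufaf6 was 5.81 with a pseudocount of 0.1 and 1.13 with 10.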
